A study of Zea mays with 2 samples.

Results

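Site pairs separated by a nucleosome-sized gap are pairs of neighbouring MNase hypersensitive sites with 120 to 220 bp between the end of the first peak and the start of the next. They were chosen from the authors' merged list of 66801 peaks. A pair was kept when no other merged summit lay within 2 kb of either of its summits. Of the 66791 neighbouring peak pairs in the list, 1825 had a gap of this size and 1079 of those stood alone in this way. These 1079 pairs comprise 2158 peaks. The gap and the isolation were set by the rule and are given as descriptions.

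The sites were mapped by MH-seq, in which nuclei are digested lightly with micrococcal nuclease (MNase) and the short fragments set free are sequenced. All data come from 1 group of 2 replicates. It was leaf tissue of maize, Zea mays, of the reference inbred B73, taken at 10 days of age from 10 plants per the labels. Nuclei were fixed with 1% formaldehyde and treated with 100 U of MNase, and fragments of 40 to 100 bp were recovered. The labels do not state if the replicates were collected separately, and their spread may be technical only. There was no second tissue, treatment or naked-DNA group. Each list gives the peaks' positions, the authors' fold enrichment at the summit and a −log10 q. The lowest fold enrichment in any list was 5.00. No read totals are given there, and the depth is therefore unknown.

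MNase cuts the linker DNA between nucleosomes and DNA free of nucleosomes far more readily than the DNA wrapped around a histone octamer. A short protected stretch flanked on both sides by DNA that is cut readily is the pattern that a single positioned nucleosome between open sites leaves in such an assay, and DNA-binding proteins can protect shorter stretches. In plants, open sites of this kind are found at promoters, at the ends of genes and at distal regulatory elements. The lists hold peaks and no signal inside the gap, so occupancy of the gap was not measured, and the pairs are called by the length of their gap alone. Neither genome sequence nor annotation of the same build was used here, and all positions are 1-based on B73 RefGen_v4.

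The gaps filled the whole window, with a median of 172 bp and an interquartile range of 146 to 195 bp. Counted in 20 bp bins, 206 pairs had gaps of 120 to 139 bp and 188 had gaps of 140 to 159 bp. The fullest bins followed, with 229 pairs between 160 and 179 bp and 232 between 180 and 199 bp, and then 213 between 200 and 219 bp. The exact Poisson 95% intervals of the least and most filled of these bins overlapped, at 162 to 217 and 203 to 264 pairs. Beyond the window the count was 173 (148 to 201) for gaps of 220 to 239 bp, 139 (117 to 164) for gaps of 260 to 279 bp and 209 (182 to 239) for gaps of 280 to 299 bp. The interval of the fullest bin, 203 to 264 for gaps of 180 to 199 bp, lay clear of the 148 to 201 for gaps of 220 to 239 bp. It overlapped narrowly with that of the bin below the window, 177 (152 to 205) for gaps of 100 to 119 bp. The interval of the bin from 200 to 219 bp overlapped with both. By these intervals no bin of the window was set apart from both sides in the merged list, though overlap does not show equal counts. A broad maximum lay at longer gaps, with 252 pairs (222 to 285) from 380 to 399 bp.

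In the replicate 1 list the upper part of the window did hold a local maximum. Gaps of 200 to 219 bp numbered 295 (262 to 331), against 210 (183 to 240) for gaps of 120 to 139 bp below and 188 (162 to 217) for gaps of 240 to 259 bp above. Its interval overlapped narrowly with that of gaps of 100 to 119 bp, 235 (206 to 267). In replicate 2 the counts inside the window ran from 166 (142 to 193) for gaps of 120 to 139 bp to 192 (166 to 221) for gaps of 160 to 179 bp, and 170 (145 to 198) followed for gaps of 240 to 259 bp. These intervals overlapped, so the maximum of replicate 1 was not found in replicate 2. Per bp of gap, isolated merged pairs numbered 10.7 in the window, against 18.3 for gaps of 19 to 119 bp and 8.96 for gaps of 221 to 320 bp. Farther apart they numbered 11.1 for gaps of 321 to 500 bp and 6.09 for gaps of 501 to 1000 bp. The window was therefore not where isolated neighbours were most frequent. The fullest 20 bp bin of the merged list lay at 20 to 39 bp, with 642 pairs. In the replicate lists it lay at 40 to 59 bp, with 720 pairs in replicate 1 and 645 in replicate 2. The smallest gap between neighbouring peaks was 19 bp in the merged list, 38 bp in replicate 1 and 37 bp in replicate 2. In each list the fullest bin thus lay just above the smallest gap, and its place depends on the list.

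**Figure D1:**
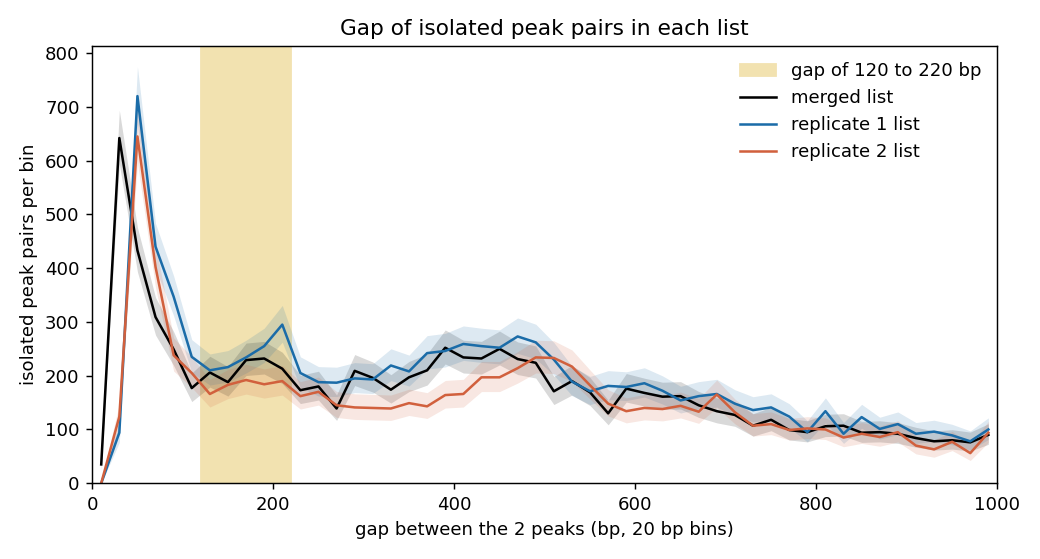
Number of isolated peak pairs per 20 bp bin of the gap between them (x, bp), in the merged list and in each replicate list, with exact Poisson 95% intervals as bands. The shaded window holds 1079 merged pairs; the merged count is 232 in the bin from 180 to 199 bp, 139 in that from 260 to 279 bp and 252 in that from 380 to 399 bp.

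At the edges of the window the pairs just inside and just outside were of similar strength. There were 89 pairs with gaps of 120 to 129 bp and 90 with gaps of 110 to 119 bp, whose weaker peaks had median fold enrichments of 5.96 and 6.13. At the other edge there were 99 pairs with gaps of 211 to 220 bp and 79 with gaps of 221 to 230 bp, with medians of 6.23 and 6.04. By isolation, 20 pairs had the nearest other summit at 2001 to 2200 bp and 23 pairs of the same gap were left out with it at 1801 to 2000 bp. Most members were far from this limit: the nearest other summit lay at a median of 11.2 kb, within 5 kb for 169 pairs (15.7%) and beyond 50 kb for 76 pairs (7.04%).

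The paired peaks themselves were of ordinary width. Their median was 211 bp (interquartile range 132 to 311 bp), against 225 bp in isolated pairs with gaps of 221 to 320 bp, 226 bp in the 36027 solitary peaks with no other summit within 2 kb, and 220 bp over all merged peaks. Peaks under 130 bp, called narrow here, made up 24.6% of paired peaks, against 22.8% of peaks in pairs with gaps of 221 to 320 bp and 21.6% of solitary peaks. By pair, 635 (58.9%) had no narrow peak, 358 (33.2%) had a narrow and a wider one, and 86 (7.97%) had a narrow peak on both sides. Run in each replicate list, the rule gave median widths of 178 and 179.5 bp (mean 178.8 ± 1.06 bp, SD, n = 2), so widths depend more on the list than on the replicate.

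Widths within a pair were only loosely alike. The wider peak was a median of 1.65 times as wide as its partner, with an interquartile range of 1.23 to 2.39. Spearman's rho between left and right width was 0.16 across 1079 pairs, whose members share a library, a neighbourhood and a local background. The stronger peak had a median width of 259 bp and the weaker one 174 bp, and the stronger peak was also the wider one in 749 pairs (69.4%).

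From the first base of the left peak to the last base of the right one, a pair spanned a median of 616 bp (interquartile range 496.5 to 785 bp, range 259 to 1533 bp). The summits, where enrichment is highest, were a median of 390 bp apart, with an interquartile range of 316 to 499 bp. A summit lay a median of 88 bp from the edge facing the gap and 86 bp from the edge facing away. In 53.2% of the peaks it lay nearer to the outer edge, against 52.7% in pairs with gaps of 221 to 320 bp. Summits thus showed hardly any lean away from the gap. How far each lay from the middle of its peak was not measured. Pairs of narrow peaks had summits a median of 261.5 bp apart and pairs of wider peaks 448 bp, while their gaps had medians of 171 and 175 bp.

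In strength the paired peaks were slightly below the average of the list. Their median fold enrichment was 7.16, against 7.22 in pairs with gaps of 221 to 320 bp, 7.83 in solitary peaks and 7.49 over all merged peaks. When all merged peaks were ranked in 5 equal groups by fold enrichment, from weakest to strongest, the paired peaks put 22.6%, 21.6%, 21.1%, 17.2% and 17.5% of their number in them. The weaker peak of a pair had a median of 6.02 and a maximum of 16.3, and the stronger one a median of 8.86 and a maximum of 26.8.

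Most pairs were within 1.5-fold in strength, much like isolated pairs of other gaps. The median absolute log2 ratio of the fold enrichments was 0.42 (1.34-fold), with an interquartile range of 0.19 to 0.78. In 428 pairs (39.7%) the peaks were within 1.25-fold of each other, in 688 (63.8%) within 1.5-fold, and in 169 (15.7%) more than 2-fold apart. Over all isolated pairs with gaps up to 1000 bp the median was 1.32-fold. Of those, 65.7% were within 1.5-fold and 13.4% more than 2-fold apart. The right peak was the stronger in 559 pairs and the left in 514, with a tie in the others, a share of 51.8% for the right (Wilson 95% interval 48.8 to 54.8%). No side was favoured beyond counting error.

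The strengths of the partners were nearly uncorrelated. Spearman's rho between left and right fold enrichment was -0.03 across the 1079 pairs and Pearson's r of their log2 values was -0.04. For isolated pairs with gaps of 221 to 320 bp rho was -0.01, and for gaps of 321 to 500 bp it was 0.16. Pairs more than 2-fold apart were 2.72 percentage points more frequent than at gaps of 221 to 320 bp, where they made up 12.9%, with a Newcombe 95% interval of -0.41 to 5.78 points that includes 0. Set against gaps of 321 to 500 bp, with 11.7%, the difference was 3.97 points (1.44 to 6.62). These intervals, like all those given here, treat each pair as a unit and cover counting error only.

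**Figure D2:**
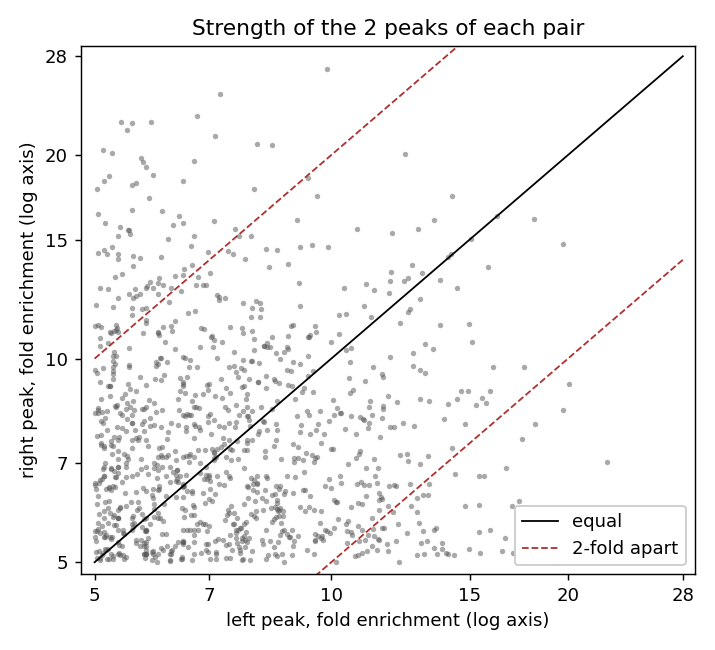
Fold enrichment of the left peak (x, log axis) and of the right peak (y, log axis) in each of the 1079 pairs; the solid line marks equal strength and the dashed lines a 2-fold difference. The points fill the plot without following the line of equality, and 169 pairs lie outside the dashed lines.

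Each replicate's own list was then read at the 1079 pairs, counting a partner as present when a replicate peak overlapped it by at least 1 bp. In replicate 1, 893 pairs (82.8%, Wilson 95% interval 80.4 to 84.9%) appeared as separate peaks on both sides, and in replicate 2, 692 (64.1%, 61.2 to 66.9%). Over all isolated merged pairs with gaps up to 1000 bp these shares were 82.3% and 69.1%. Both replicates showed both peaks in 578 pairs (53.6%, 50.6 to 56.5%), against 58.5% of those 8868 pairs. At least 1 replicate did so in 1007 pairs (93.3%), a share that was not taken over all isolated pairs and is not shown to be particular to the members. Among single peaks, 72.7% of the 2158 had a counterpart in both replicates, against 76.5% of all merged peaks. The merged list is for these same libraries, so these shares are no independent sign of recurrence.

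Where a replicate showed fewer peaks at the merged pairs, a partner was missing and the pair was hardly ever fused. The rule had asked for a gap free of peaks in the merged list of these same libraries. Rare fusion at these pairs is therefore partly set in advance. A single replicate peak spanned both partners in 2 pairs in replicate 1 and in 1 pair in replicate 2, and in no pair in both. At gaps of 19 to 119 bp such spanning was found in 289 pairs (15.7%) of replicate 1 and 145 (7.86%) of replicate 2. Part of that is set in advance too. No neighbouring peaks lay closer than 38 bp in replicate 1 and 37 bp in replicate 2, against 19 bp in the merged list. When pairs were chosen by the same rule in replicate 2, a single replicate 1 peak spanned 66 of them (7.17%). When they were chosen in replicate 1, a single replicate 2 peak spanned 8 (0.66%). Among the members, 173 pairs (16.0%) had a peak on 1 side in replicate 1 and 331 (30.7%) in replicate 2, against 13.5% and 25.4% of all isolated pairs with gaps up to 1000 bp. Neither side had a peak in 11 pairs of replicate 1 and 55 of replicate 2, and in only 1 pair in both.

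The missing partner was usually the weaker one. Strength here is that of the merged list of these same libraries, and every list stops at a fold enrichment of 5. A weak partner is therefore the likelier to fall below the limit in a replicate, and this result is partly set in advance. It was the weaker of the pair in 154 of the 173 one-sided pairs of replicate 1 (89.0%, 83.5 to 92.9%) and in 295 of the 331 of replicate 2 (89.1%, 85.3 to 92.0%). In replicate 1 the missing partners had a median merged fold enrichment of 5.36 and a median width of 109 bp, against 7.48 and 202 bp for the partners that were present. In replicate 2 the medians were 5.47 and 127 bp for missing partners, against 8.16 and 225 bp for those present. One and the same partner was missing from both replicates in 44 pairs (4.08%). A left partner alone was seen in 93 pairs and a right partner alone in 80 in replicate 1, and in 153 and 178 in replicate 2.

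**Figure D3:**
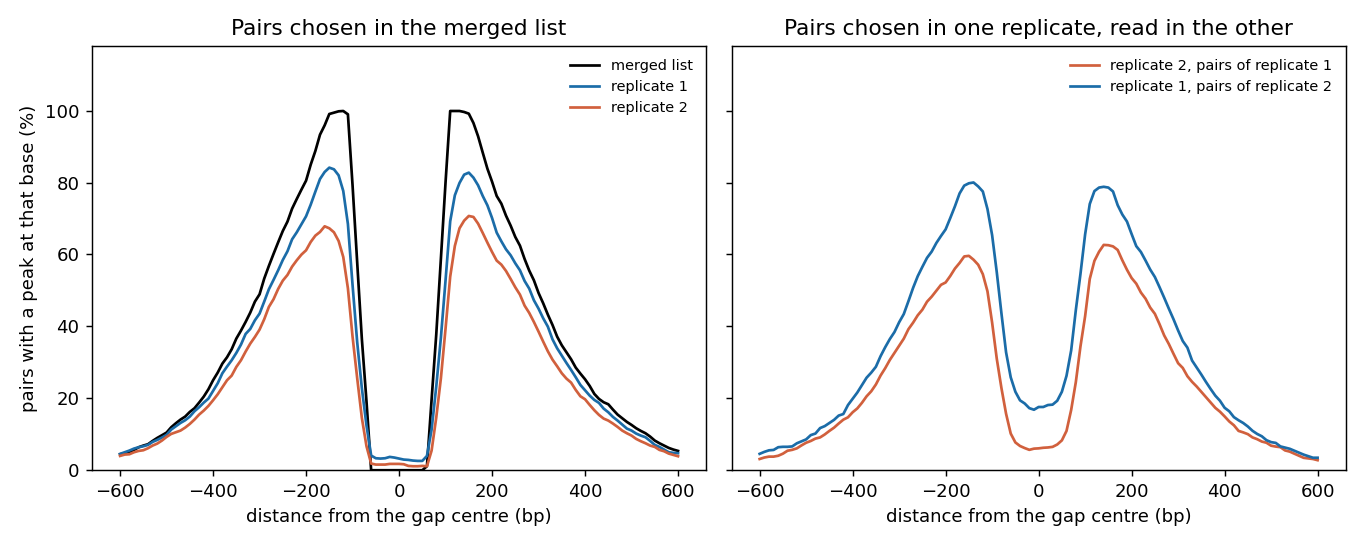
Share of pairs with a peak (y, %) at each distance from the gap centre (x, bp, in 10 bp steps), for pairs chosen in the merged list (left) and for pairs chosen by the same rule in one replicate and read in the other (right). At the centre 3.24% of the merged pairs have a replicate 1 peak and 1.76% a replicate 2 peak, and flanks reach 84.2% and 70.7% at about 150 bp from the centre.

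Pairs seen in full in both replicates tended to have a stronger weaker peak, which the fold enrichment limit of 5 partly sets in advance. That peak had a median fold enrichment of 6.91, and the narrower peak of the pair a median width of 197 bp. In the 315 pairs seen in full in replicate 1 alone these medians were 5.47 and 114 bp, in the 114 seen in full in replicate 2 alone 5.47 and 112 bp, and in the 72 seen in full in neither 5.20 and 92 bp. The median gap varied little over these outcomes, from 165 to 175 bp. Of the pairs with no narrow peak 70.1% (66.4 to 73.5%) had both peaks in both replicates, of those with 1 narrow peak 32.7% (28.0 to 37.7%), and of those with 2 narrow peaks 18.6% (11.8 to 28.1%). Of pairs more than 2-fold apart in strength 34.3% (27.6 to 41.8%) did, against 56.8% (52.0 to 61.4%) of those within 1.25-fold, and their weaker peaks had medians of 5.55 and 6.39.

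Sorted by the fold enrichment of the weaker peak, the share with both peaks in both replicates climbed from 15.8% (12.3 to 20.1%) at 5 to 5.5 through 35.9% at 5.5 to 6, 70.3% at 6 to 7 and 89.3% at 7 to 8 to 98.1% (94.6 to 99.4%) at 8 and over. The weakest of these classes held 336 pairs, 31.1% of the members. The limit of 5 in every list and the shared libraries build part of this climb in. In pairs with gaps of 221 to 320 bp the shares in the same classes were 18.2%, 42.2%, 74.7%, 95.1% and 98.5%. The members were the lower in each of the 5 classes, but the Wilson 95% intervals overlapped in every class. Over all strengths the members' 53.6% differed by -5.81 percentage points from the 59.4% of those pairs (Newcombe 95% interval -10.2 to -1.41). The difference was -3.72 points from the 57.3% that those pairs would show with the members' mix of strengths. No interval was computed for this adjusted difference. Against the 39.7% of pairs with gaps of 19 to 119 bp, the members' share was higher by 13.9 points (10.2 to 17.6). Most of that gap class's deficit lay at the shortest gaps: the share was 24.1% for gaps of 20 to 39 bp, and from 47.8 to 52.5% in the 20 bp bins from 40 to 119 bp. The smallest gap between neighbouring peaks was 19 bp in the merged list, 38 bp in replicate 1 and 37 bp in replicate 2. The low share at the shortest gaps, and with it part of the 13.9 points, is therefore set in advance by the lists.

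Within the window the share with both peaks in both replicates was 44.2% (37.6 to 51.0%) at gaps of 120 to 139 bp and 58.5% (51.4 to 65.3%) at 140 to 159 bp. In the 3 bins above that it was 52.0%, 56.5% and 56.7%. The lowest value belonged to the shortest gaps of the window and was not part of a steady trend with gap length. Just inside the lower edge, at 120 to 129 bp, the share was 41.6% (31.9 to 52.0%), while just outside it, at 110 to 119 bp, it was 58.9% (48.6 to 68.5%). The weaker peaks of these bins had similar medians, 5.89 at 120 to 139 bp and 5.88 to 6.22 in the others.

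**Figure D4:**
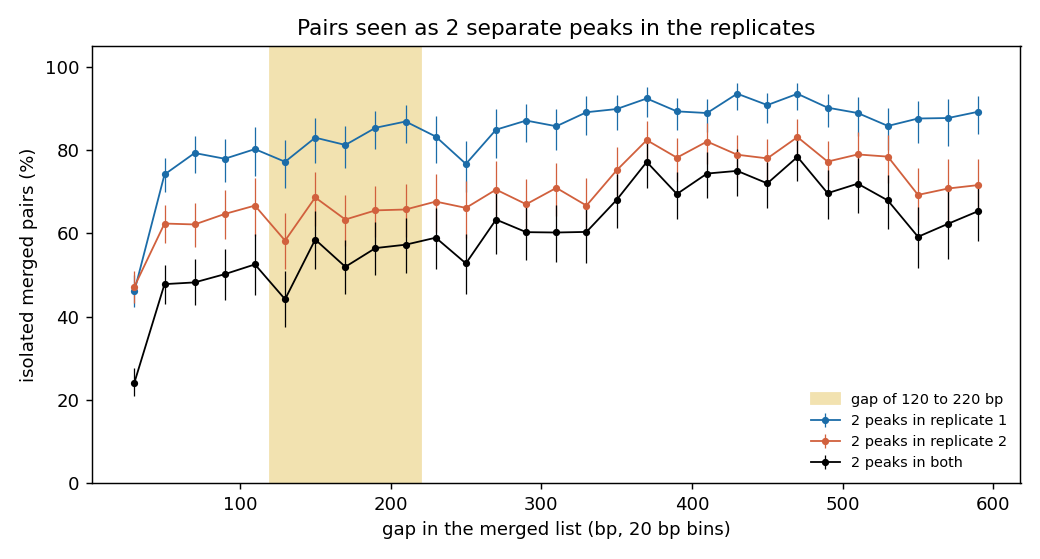
Share of isolated merged pairs (y, %) seen as separate peaks on both sides in replicate 1, in replicate 2 and in both, by gap in 20 bp bins (x, bp), with Wilson 95% intervals. Within the shaded window the share in both runs from 44.2% to 58.5%. By its definition it cannot exceed the share of either replicate alone.

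To read recurrence in a library that had no part in the choice, the same rule was run in each replicate list and the pairs were looked up in the other. Replicate 1 held 1216 such pairs and replicate 2 held 921 (mean 1068.5 ± 208.6, SD, n = 2). Of the replicate 1 pairs, 591 (48.6%, 45.8 to 51.4%) had separate peaks on both sides in replicate 2, against 52.7% of all isolated replicate 1 pairs with gaps up to 1000 bp. Of the replicate 2 pairs, 598 (64.9%, 61.8 to 67.9%) had them in replicate 1, against 67.5% of all such replicate 2 pairs. With the replicate 1 list cut to the 60518 peaks of highest −log10 q, as many as replicate 2 has, the shares were 59.0% and 55.4%, so which of these is the higher depends on the number of peaks called.

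Set against longer gaps, the members' share was lower in 5 of 6 comparisons beyond counting error. For pairs chosen in replicate 2 the share differed by -7.31 points from the 72.2% of pairs with gaps of 221 to 320 bp (-11.7 to -2.85). For those chosen in replicate 1 it differed by -0.52 points from the corresponding 49.1%, with an interval of -4.73 to 3.70 that includes 0. From gaps of 321 to 500 bp the members differed by -16.5 points (-19.9 to -13.0) when chosen in replicate 1 and by -15.6 points (-19.3 to -12.0) when chosen in replicate 2. From gaps of 501 to 1000 bp the differences were -8.30 points (-11.5 to -5.03) and -12.7 points (-16.2 to -9.34). These differences were not adjusted for strength. Weaker peaks of members had medians of 6.09 (replicate 1) and 5.96 (replicate 2), against 6.88 and 6.53 at 321 to 500 bp. They were 6.37 and 6.31 at 501 to 1000 bp, and 6.18 and 5.90 at 221 to 320 bp. For merged pairs at the members' mix of strengths, the difference from 321 to 500 bp was -4.50 points in place of -18.2. From 501 to 1000 bp it was -5.17 in place of -9.12. No intervals were computed for these adjusted differences. In both directions the members' share was higher than at gaps under 120 bp, by 13.9 points (10.3 to 17.4) for replicate 1 pairs and 29.7 points (25.8 to 33.5) for replicate 2 pairs. At gaps under 120 bp a single peak of the other replicate spanned 312 (17.0%) of replicate 1 pairs and 640 (39.7%) of replicate 2 pairs. Spanned pairs do not count as separate peaks, so the lower shares at these gaps include fused pairs. Among pairs by the rule, a single peak of replicate 1 spanned 66 (7.17%) of the replicate 2 pairs. A single peak of replicate 2 spanned 8 (0.66%) of the replicate 1 pairs. At the gap centre 17.6% of the replicate 2 pairs lay under a replicate 1 peak and 6.09% of the replicate 1 pairs under a replicate 2 peak.

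The exact rule was met in fewer cases than the presence of both peaks. Of the 1079 members, 563 (52.2%) were also pairs by the rule in replicate 1's own list, 373 (34.6%) in that of replicate 2, and 231 (21.4%) in both. Seen from the replicate lists, those are 46.3% of the 1216 pairs of replicate 1 and 40.5% of the 921 of replicate 2. Isolated pairs of other gaps were not held to a window of their own in this way. These shares are therefore not shown to be particular to gaps of this size. Among members with both peaks present, the commonest reason was a gap outside the window with the isolation still met, in 241 pairs of replicate 1 and 251 of replicate 2. Another summit within 2 kb, with the gap still in the window, accounted for 52 and 38 pairs.

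The median gap differed between the lists, whereas the median summit distance was nearly the same in all 3. In the 578 pairs with both peaks in both replicates the median gap was 175 bp in the merged list, 200 bp in replicate 1 and 213 bp in replicate 2. The median width of the same peaks was 253.5, 218 and 200 bp in these lists. The median summit distance was 429.5, 426 and 429 bp, in the same order. The gap lay in the window of 120 to 220 bp in 388 pairs (67.1%) of replicate 1, in 337 (58.3%) of replicate 2 and in 271 (46.9%) of both, and most of the others were longer, 168 in replicate 1 and 234 in replicate 2.

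Between the replicates the gap of a pair differed by a median of 23 bp and the summit distance by a median of 26 bp. Across the 578 pairs Pearson's r between replicates was 0.40 for the gap and 0.79 for the summit distance. The rule had limited the gap in the merged list and had not limited the summit distance, so part of the shift in gap between lists follows from the choice of pairs. In 246 pairs (42.6%) the summit distances agreed within 20 bp. A single summit was displaced by a median of 15 bp between replicates, and 61.7% of the 1156 summits lay within 20 bp. The upper quartile of that difference in summit distance was 82.8 bp.

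The balance of strength was partly kept between replicates. The same partner was the stronger in both replicates in 429 of the 578 pairs (74.2%, 70.5 to 77.6%), and Pearson's r of the log2 right-to-left ratio was 0.74, a description across pairs. The median absolute log2 ratio was 0.48 in replicate 1 and 0.40 in replicate 2. Read without the merged list, the same partner was the stronger in 75.8% (72.2 to 79.1%) of the replicate 1 pairs present in replicate 2, and in 74.1% (70.4 to 77.4%) of the replicate 2 pairs present in replicate 1. At gaps of 221 to 320 bp these shares were 71.4% (67.1 to 75.2%) and 75.2% (71.4 to 78.7%), which overlap with them.

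**Figure D5:**
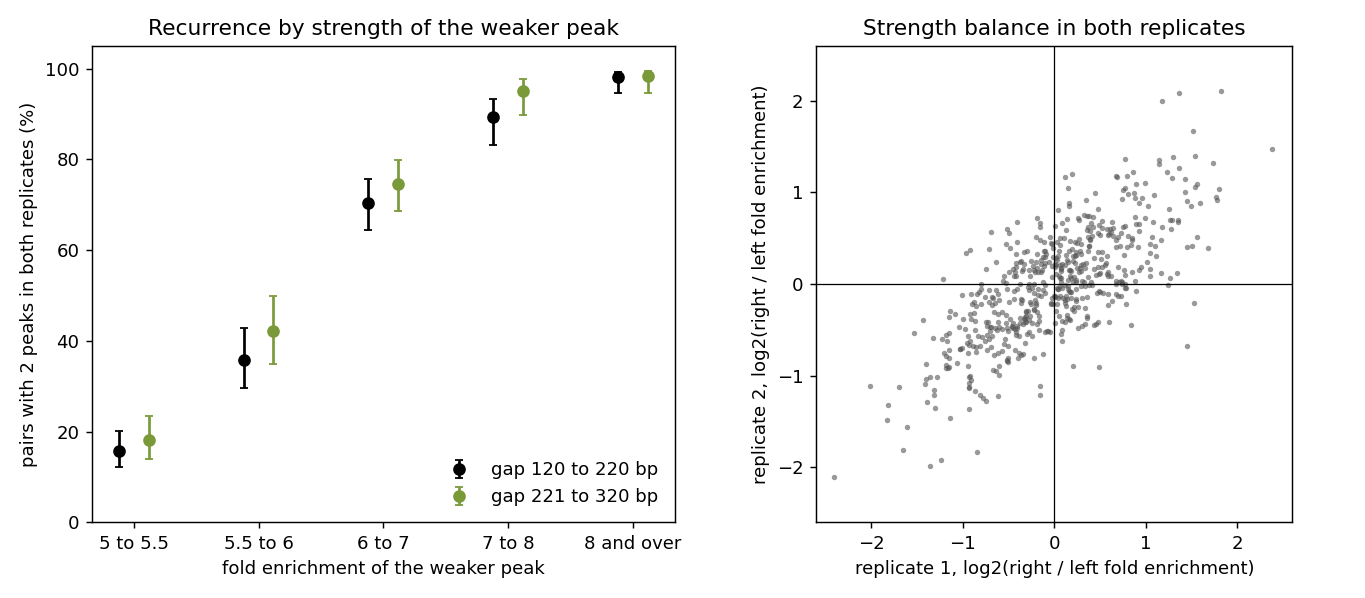
Left, share of pairs with both peaks in both replicates (y, %, Wilson 95% intervals) by fold enrichment of the weaker peak, for members and for pairs with gaps of 221 to 320 bp. Right, log2 ratio of right to left fold enrichment in replicate 1 (x) and replicate 2 (y) for the 578 pairs with both peaks in both; 429 have the same stronger partner.

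On each chromosome the pair whose weaker peak had the highest fold enrichment is given next, since in these both sites were strong. The strongest of all lay on chromosome 1, with peaks at 271210233 to 271210567 (335 bp) and 271210744 to 271211253 (510 bp). Its left and right fold enrichments were 16.26 and 16.25 in the merged list, 18.0 and 15.7 in replicate 1, and 12.9 and 15.2 in replicate 2. The gap was 176 bp in the merged list, 195 bp in replicate 1 and 209 bp in replicate 2, and the summits were 643, 641 and 642 bp apart. This pair was balanced in the merged list, with the left peak the stronger in replicate 1 and the right one in replicate 2.

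The chromosome 2 pair, at 199789460 to 199789595 (136 bp) and 199789765 to 199789983 (219 bp), held the member peak with the highest −log10 q, 187.1 for the left peak. Its fold enrichments were 18.1 and 16.1 in the merged list, 21.5 and 15.7 in replicate 1, and 16.5 and 18.5 in replicate 2. The gap was 169, 181 and 182 bp in the merged list, replicate 1 and replicate 2, and the summits were 390, 390 and 404 bp apart. Here too the order of the partners differed between replicates.

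On chromosome 3, peaks at 7153572 to 7153695 and 7153844 to 7154065 were separated by 148 bp and had fold enrichments of 15.04 and 15.02, with 13.1 and 17.6 in replicate 1 and 14.5 and 10.6 in replicate 2. On chromosome 10, peaks at 25942905 to 25943132 and 25943326 to 25943532 were separated by 193 bp, with 14.5 and 12.7 in the merged list, 16.1 and 14.1 in replicate 1, and 14.6 and 12.5 in replicate 2. Only the second of these kept the order of its partners.

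On chromosome 8, peaks at 81860456 to 81860714 (259 bp) and 81860910 to 81861607 (698 bp) were 195 bp apart in the merged list but 534 bp apart in replicate 1 and 545 bp in replicate 2. The summits were 732, 735 and 744 bp apart in the 3 lists. The part of the wide right peak next to the gap was thus under no peak in either replicate, and this pair had a gap of nucleosome size in the merged list alone.

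The corresponding pairs of the other chromosomes lay at 238728876 to 238729543 on chromosome 4, 155159267 to 155160120 on chromosome 5, 157554412 to 157555233 on chromosome 6, 137542782 to 137543565 on chromosome 7 and 94487445 to 94487954 on chromosome 9. Their gaps were 176, 192, 217, 172 and 189 bp, and the fold enrichments of their weaker peaks were 12.7, 14.1, 13.5, 12.4 and 12.5 in the merged list. All 10 pairs had both peaks in both replicates, as did 98.1% of the members whose weaker peak had a fold enrichment of 8 and over. The chromosome 6 and chromosome 9 pairs were unequal in replicate 2 alone, with 6.71 and 15.1 and with 5.71 and 11.8 for the left and right peak.

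The 5 most unequal pairs joined a strong site to one near the calling limit. On chromosome 5, peaks at 171596615 to 171597056 and 171597216 to 171597475 had fold enrichments of 25.9 and 5.99, a ratio of 4.32, with 28.2 and 5.31 in replicate 1 and 24.3 and 5.66 in replicate 2. It was the only one of the 5 with both peaks in both replicates. In the other 4 the weak partner was present in replicate 1 and absent from replicate 2. These lay at 180358838 to 180359224 on chromosome 2, 881548 to 882084 on chromosome 8, 25468367 to 25468986 on chromosome 6 and 6262571 to 6263036 on chromosome 3, with weaker fold enrichments of 5.41, 5.06, 5.58 and 5.04 and ratios of 4.14, 4.07, 4.00 and 3.97.

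Among the 44 pairs whose same partner was missing from both replicates, the one with the strongest weaker peak was on chromosome 6 at 80483119 to 80483224 and 80483435 to 80483511, with fold enrichments of 6.03 and 5.80 and no peak at all in replicate 1. It was followed by a pair on chromosome 7 at 95327926 to 95328268 and 95328416 to 95328496, with 9.82 and 5.58 and only its left peak in each replicate, and by a pair on chromosome 8 at 137427708 to 137427807 and 137427940 to 137428026, with 5.58 and 5.80. The partners missing from both were 77, 81 and 100 bp wide, all narrow.

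The pairs were spread over all 10 chromosomes, at 0.51 per Mb or 1 in 1.95 Mb. Per 1000 merged peaks there were between 11.3 pairs (Wilson 95% interval 8.85 to 14.5) on chromosome 6, with 62 pairs, and 21.0 (17.6 to 24.9) on chromosome 8, with 125, and these intervals did not overlap. Chromosome 1 held the most, 189 pairs or 18.5 per 1000 peaks. Median gaps per chromosome ran from 165.5 bp on chromosome 9 to 180.5 bp on chromosome 6. The share with both peaks in both replicates ran from 46.4% (37.9 to 55.1%) on chromosome 8 to 63.5% (56.4 to 70.0%) on chromosome 1.

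Pairs were denser near chromosome ends, as peaks in general were. In the outer 20% at each end there were 541 pairs, or 0.64 per Mb, and in the middle 20% there were 173, or 0.41 per Mb, a ratio of 1.56 (exact 95% interval 1.32 to 1.87). For all merged peaks the ratio was 1.86 (1.82 to 1.91), for solitary peaks 1.98 and for pairs with gaps of 221 to 320 bp 1.79 (1.47 to 2.19). By the same rule the ratio was 1.82 for replicate 1, inside the interval of the merged pairs, and 2.15 for replicate 2, above it. Both were higher than the 1.56 of the merged pairs, and neither was set against all peaks of its own list. The ratio of the merged pairs exceeded 1 on 9 chromosomes and was 0.94 on chromosome 8, with 62 pairs in the outer and 33 in the middle part.

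Close groups of pairs were few. Of the 828 windows of 1 Mb that held a pair, 625 held 1, 162 held 2 and 41 held 3 or more. The fullest, on chromosome 1 at 252000001 to 253000000, held 5. The median distance from a pair to the next on the chromosome was 1213 kb, and the smallest was 3300 bp.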

How the data were processed

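The deposited files are 3 peak lists on B73 RefGen_v4, 1 per replicate and 1 merged. The submitters' processing notes name MACS2 and Bowtie2, with fastp 0.20.0, SAMtools 1.5, deepTools and ChIPseeker. No settings are given there, nor how the merged list was made. Peak callers set edges by a threshold, so widths and gaps depend on depth, which is unknown. The fold enrichment over background and the −log10 q of each peak are the authors' deposited values and were compared only among peaks of the same list.

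Pairs and overlaps were computed with Python 3.11.15, numpy 2.4.6, pandas 2.3.3 and scipy 1.17.1. A gap is the number of bases between the end of a peak and the start of the next. A replicate peak marks a partner when they overlap by at least 1 bp, and one that overlaps both partners counts as spanning. Gaps and widths in a replicate are those of the overlapping peaks next to the gap. Chromosome parts were taken from the last peak end in any list. Shares carry Wilson, differences Newcombe and counts exact Poisson 95% intervals. No significance test was run, since there is 1 group of 2 replicates. On simulated data, 1000 planted pairs among 7000 peaks were all found and read correctly. Named pairs are, on each chromosome, the one with the strongest weaker peak, the 5 most unequal, up to 3 spanned in both replicates (there were none) and the 3 with the strongest weaker peak among those lacking the same partner in both. The members, classes and measures were chosen with earlier results of these data known. Alternatives changed the isolation distance, gap window, q limit, overlap rule, chromosome parts and replicates used.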

Additional observations from a re-analysis of the deposited data

How the results depend on the processing

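The strength balance (median absolute log2 ratio 0.42) moved by less than the spread between replicates under all 6 alternatives tried. These include each replicate alone, whose values define that spread (SD 0.097, n = 2), so it is a loose limit. With −log10 q of at least 10 in every list, the median width was 213 bp and the share of pairs with both peaks in both replicates 44.4%. With gaps of 140 to 200 bp there were 658 pairs with a median width of 213.5 bp. With summits within 50 bp in place of overlap, the share in both replicates was 36.7%, the share of replicate 1 pairs found in replicate 2 was 33.1% and of replicate 2 pairs in replicate 1 45.6%. With equal numbers of peaks per replicate, an alternative chosen after seeing the data, these were 46.6%, 59.0% and 55.4%. With one replicate left out at a time there were 921 to 1216 pairs, with median gaps of 171 to 176 bp, median widths of 178 to 179.5 bp, median absolute log2 ratios of 0.37 to 0.50, end-to-middle ratios of 1.82 to 2.15, and 64.1 to 82.8% of merged pairs with both peaks in the remaining replicate. That share is higher by construction, since only 1 list must hold both peaks. The cause of the other moves was not tested. Isolation at 1 or 5 kb gave values within the spread or interval for every result. No paired analysis was possible because there is only 1 group. The depth of the libraries is not known, and near the fold enrichment limit of 5 a partner absent from a list is not shown to be absent from the chromatin.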
